A study of Mus musculus with 16 samples.

Results

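The 10 genes described here are expressed by vascular endothelium of the spleen: *Stab1*, *Stab2* and *Lyve1*, which mark sinusoidal endothelium, *Cdh5*, *Pecam1* and *Emcn*, which mark endothelium in general, *Plvap*, *Gpihbp1* and *Cd36*, which belong to specialised capillaries, and *Madcam1*, an adhesion molecule of the marginal sinus. They were chosen by symbol among the 54838 genes of a count table, and all 10 were found. RNA was sequenced from C57BL/6 mouse spleen in 8 size-selected and 8 whole spleen samples, and the study set out to find genes enriched in spleen glia, which is the source named for the size-selected group. Size-selected cells are those that a strainer held back after the minced organ had been digested, treated with Dispase II and EDTA, and freed of red blood cells. The same preparation text is given for the whole spleen samples, so how these were made is not described separately. Each group holds 4 male and 4 female samples, no age or other treatment is given, and 1 number from 407 to 460 is shared by 1 sample of each group, which pairs them. Numbers 407, 408, 427 and 435 are male, and 436, 445, 447 and 460 are female. The labels do not say whether samples with different numbers are separate animals, so p-values measure the spread between these samples, which may be partly technical.

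The spleen filters blood through an open circulation in which blood cells pass between the lining cells of venous sinuses. Sinusoidal endothelial cells clear waste from blood with scavenger receptors, of which stabilin-1 and stabilin-2, the products of *Stab1* and *Stab2*, are the best known. VE-cadherin, the product of *Cdh5*, holds endothelial cells to each other in all vessel types, whereas PECAM-1 is also made by platelets and leukocytes, and CD36 by macrophages, platelets and adipocytes. MAdCAM-1 is the ligand of the lymphocyte integrin made of Itga4 and Itgb7 and lines the sinus between white pulp and marginal zone.

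The size-selected samples held 13119992 to 19944440 estimated counts and the whole spleen samples 12153770 to 16282454. Levels are given as CPM, TMM-scaled counts relative to the library total. In the size-selected columns, the deposited values of 3898 genes are multiplied by constants that no label mentions. *Stab1*, *Pecam1*, *Madcam1* and *Cd36* are among these genes and the other 6 are not. Values with the constants divided out are called restored. Markers of other cells moved too: 6 of 6 B cell markers were lower in the size-selected samples, and the fibroblast, smooth muscle and glia lists were higher by a median of 7.12, 6.49 and 6.45 on the log2 scale. Some of these genes had few counts in any whole spleen sample, such as *Pdgfra* (at most 9) and *Cdh19* (at most 4). Such genes were tested only because of their size-selected counts, so these medians are a description.

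The endothelial genes rose together in the size-selected samples. Of the 9 genes past the count filter, 9 were called higher (edgeR quasi-likelihood test, Benjamini-Hochberg adjusted p under 0.05), against 37.5% of the 14510 genes tested called higher and 67.9% called in either direction. The median log2 fold change of the 9 was 4.45, and that of all genes tested was 0.05. For 7 of the 9 the fold change reached 3.5 on the log2 scale, which 9.97% of all genes did in this direction. For the 9 the groups did not overlap, as for 23.3% of all genes. *Emcn*, with 3 to 15 counts in whole spleen, passed the filter only through the size-selected group and so had to differ. The other 8 also passed when whole spleen samples were filtered alone to compare the sexes, which asks for fewer samples. *Madcam1*, with 9 counts in whole spleen 460, would not have passed the filter used here on whole spleen alone. The count and median of the 9 are therefore a description. With the number as a block 9 of 9 were again called, against 38.1% of all genes called higher. In bulk RNA, more cells of a type and more RNA per cell cannot be told apart.

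**Figure D1:**
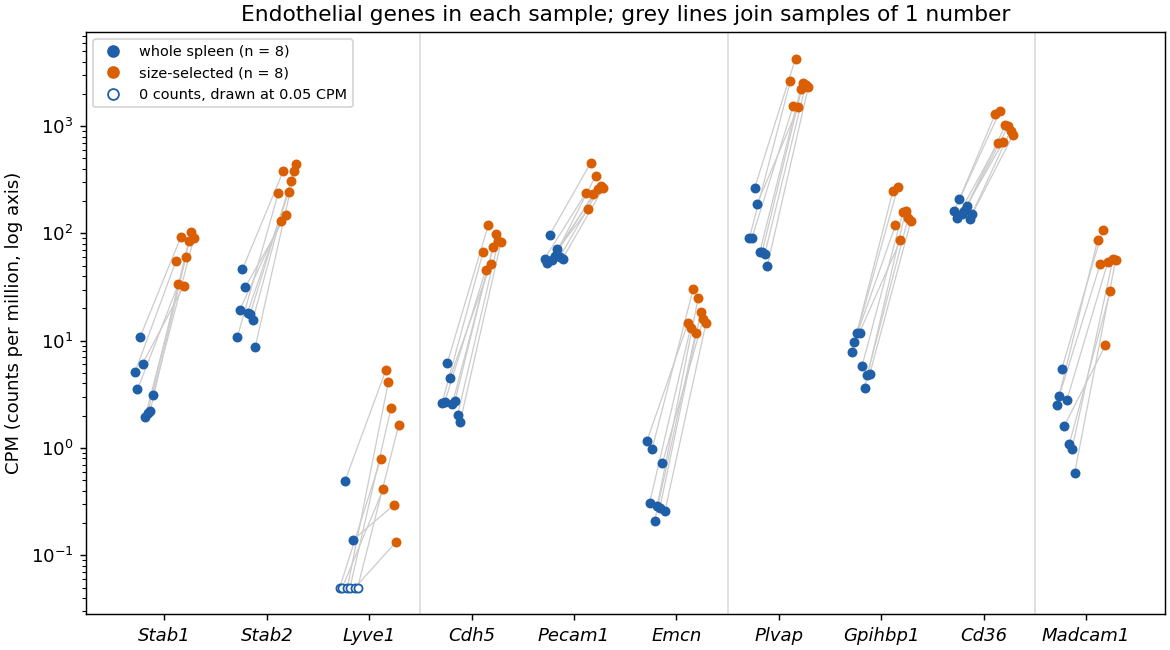
CPM on a log axis of the 10 genes in each of the 8 whole spleen (blue) and 8 size-selected (orange) samples, with grey lines joining samples of 1 number. In 9 genes every size-selected sample lies above every whole spleen sample, and *Lyve1* has 0 counts in 6 whole spleen samples.

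*Stab2* (chr10:86841198-87008025, minus strand, GRCm38, like all coordinates here) was the more abundant stabilin. It was at 131 CPM in the lowest size-selected sample, 275 at the median and 439 in the highest, and at 8.74, 18.0 and 46.4 CPM in whole spleen. The ranges did not meet, and the means were 284 ± 114 and 21.0 ± 12.3 CPM (SD, n = 8). Its rise was 3.76 ± 0.35 (log2, SE; edgeR adjusted p = 2.22e-08). Whole spleens 427 and 435, both male, stood highest at 46.4 and 31.4 CPM, with the other 6 at 8.74 to 19.5. These 2 also had the highest summed CPM of the other pan-endothelial genes (352 and 250, against 158 to 185) and of the macrophage markers (2695 and 2305, against 1503 to 2003), and of the erythroid markers (8173 and 13705, against 278 to 5694). The part of these cells in the values was not tested. Without both numbers the log2 fold change was 4.26.

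*Stab1* (chr14:31139013-31168641, minus strand) is made by sinusoidal endothelium and by some macrophages. It had 32.2, 72.4 and 104 CPM as lowest, median and highest size-selected values and 1.94, 3.30 and 10.8 CPM in whole spleen. The groups lay apart, with a rise of 4.00 ± 0.37 (log2, SE; edgeR adjusted p = 2.27e-08) and 4.08 on restored counts. Whole spleens 427 and 435 were again the highest, at 10.8 and 6.10 CPM, and without both numbers the value was 4.58. *Stab1* overlaps *Nt5dc2* on the opposite strand, which held up to 707 counts in a sample, and whether the counting used strand is not given in the sources used here.

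*Lyve1* (chr7:110850607-110863239, minus strand), a hyaluronan receptor of lymphatic and some sinusoidal endothelium, was near the detection limit. The size-selected samples ranged from 0.133 to 5.30 CPM, with a median of 1.21, that is from 2 to 74 counts. In whole spleen 6 samples had 0 counts, 445 had 2 and 427 had 6, and a count of 0 is compatible with up to 3 counts, for counting error only. *Lyve1* was the 1 gene of the 10 in which the groups overlapped. It did not pass the count filter; in the fit without a filter its log2 fold change was 4.49 (SE 0.90, edgeR adjusted p = 0.000251), where 25.3% of all genes were called higher, and it depends on the prior count.

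The promoter of *Stab1* is shown because it is the sinus gene whose 250 bases upstream of the RefSeq start lie outside any annotated part of the gene (RefSeq, GRCm38.p6, chr14:31168642-31168891, minus strand), with AGGAAG, the core bound by ETS factors of endothelium, in capitals. Motifs were searched on both strands.

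Stab1: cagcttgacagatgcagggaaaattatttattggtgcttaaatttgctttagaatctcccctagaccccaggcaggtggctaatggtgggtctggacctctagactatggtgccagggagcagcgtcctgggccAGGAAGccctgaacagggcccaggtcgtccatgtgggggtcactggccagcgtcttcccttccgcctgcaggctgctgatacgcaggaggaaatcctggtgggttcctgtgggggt

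The match is 116 bases before the start. RefSeq promoters were found for 5 of the 10 genes (*Stab1*, *Stab2*, *Emcn*, *Madcam1*, *Cd36*), and 4 of these 5 windows held AGGAAG, all but that of *Cd36*. All 250 bases of the *Cd36* window lie inside the annotated gene, as do 83 bases of the *Stab2* window and 11 of the *Emcn* window. Of the 32851 promoter windows of 250 bases, 29.5% held it. The GATA core AGATAA, held by 9.99% of all windows, the SOX core ACAATG (10.7%) and the TATA box TATAAA (12.4%) were searched in the same way. The *Stab1* window held none of these 3, and these letters being present or absent says nothing of binding.

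*Cdh5* (chr8:104101625-104144511, plus strand) was at 45.7, 79.0 and 120 CPM (lowest, median, highest) in size-selected samples and at 1.73, 2.66 and 6.20 CPM in whole spleen. Each group lay clear of the other, and the log2 fold change was 4.65 (SE 0.27, edgeR adjusted p = 1.46e-10). *Emcn* (chr3:137341067-137432185, plus strand), which encodes endomucin, a sialomucin of veins and capillaries, was near the floor in whole spleen, so that its fold change is no ranking against the other genes. Its CPM was 11.8 to 30.1 with a median of 15.4, against 0.210 to 1.17 with a median of 0.296, and the log2 fold change was 5.10 (SE 0.35, edgeR adjusted p = 7.14e-10). *Pecam1* (chr11:106654217-106750628, minus strand) had the smallest change of the 9. It was at 167, 263 and 455 CPM in size-selected samples and 52.8, 59.3 and 96.9 CPM in whole spleen, with a rise of 2.12 ± 0.18 (log2, SE; edgeR adjusted p = 5.92e-09) and 2.20 on restored counts.

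*Plvap* (chr8:71497765-71511752, minus strand) forms the diaphragms of fenestrated and sinusoidal endothelium and was the most abundant of the 10 per length of exon. It was at 1495, 2377 and 4256 CPM (lowest, median, highest) in size-selected samples and at 50.1, 79.1 and 264 CPM in whole spleen, with 427 and 435 highest at 264 and 189 CPM. The rise was 4.46 ± 0.36 (log2, SE; edgeR adjusted p = 4.90e-09), and 4.99 without these 2 numbers. *Plvap* overlaps *Gtpbp3* on the opposite strand, which held at most 137 counts in a sample. *Gpihbp1* (chr15:75596628-75599481, plus strand) carries lipoprotein lipase across the capillary wall. Its CPM was 86.7, 149 and 271 against 3.64, 6.80 and 11.9, with a rise of 4.45 ± 0.29 (log2, SE; edgeR adjusted p = 5.10e-10). *Cd36* (chr5:17781690-17888801, minus strand), a fatty acid and scavenger receptor, was at 695.9, 950.5 and 1399.6 CPM against 137, 157 and 208. Its rise was 2.61 ± 0.15 (log2, SE; edgeR adjusted p = 1.48e-10), and 2.85 on restored counts.

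*Madcam1* (chr10:79664559-79668537, plus strand) had the widest range of the 9 genes among size-selected samples. It was at 9.02 CPM in number 435, 29.2 in 445, 51.6 to 57.7 in 4 samples, 86.7 in 407 and 107 in 427, a range of 11.9-fold. Whole spleen held 0.578, 2.05 and 5.47 CPM, so the groups lay apart. The rise was 4.66 ± 0.48 (log2, SE; edgeR adjusted p = 8.57e-08), and 5.05 on restored counts.

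The *Madcam1* promoter is shown because NF-kB is a known regulator of the gene. The 250 bases before the RefSeq start are printed (GRCm38.p6, chr10:79664309-79664558, plus strand), and capitals mark 2 matches to the NF-kB consensus, which was searched on both strands.

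Madcam1: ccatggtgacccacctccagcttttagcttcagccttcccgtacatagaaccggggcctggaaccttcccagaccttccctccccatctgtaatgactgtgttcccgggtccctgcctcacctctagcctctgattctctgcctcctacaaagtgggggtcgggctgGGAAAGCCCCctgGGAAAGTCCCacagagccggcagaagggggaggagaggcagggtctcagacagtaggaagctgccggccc

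The matches begin 83 and 70 bases before the start and do not overlap the AGGAAG at 16 bases. Of the 5 windows this was the 1 with an NF-kB match, and 7.25% of all windows held one.

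Per kilobase of exon, the levels in the size-selected samples ranked *Plvap* (1222 CPM per kb), *Cd36* (273), *Gpihbp1* (64.3), *Pecam1* (45.0), *Madcam1* (39.3), *Stab2* (32.5), *Cdh5* (18.6), *Stab1* (6.72), *Emcn* (3.32) and *Lyve1* (0.644). On restored counts *Madcam1*, at 50.5, stood above *Pecam1*, at 46.6. The SD of *Madcam1* was 21.2 CPM per kb, so that its order with *Pecam1* and *Stab2* is within the spread between samples.

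The genes did not change by the same amount. *Cdh5*, the gene of an adhesion protein of endothelial junctions, served as the reference: the paired change of each gene minus that of *Cdh5* of the same number is given on the log2 scale, as a description with no test. *Plvap* moved as *Cdh5* did, with a difference of -0.01 ± 0.27 (SD, n = 8 pairs). *Gpihbp1* (-0.18 ± 0.47), *Madcam1* (-0.07 ± 0.63) and *Emcn* (0.27 ± 0.99) differed by less than their spread. *Pecam1* rose by less than *Cdh5* in 8 of 8 pairs, with a difference of -2.54 ± 0.64, and so did *Cd36*, with -2.05 ± 0.63. On restored counts these were -2.42 and -1.76, and the *Madcam1* difference changed sign to 0.39 ± 0.63, higher in 6 of 8 pairs against 4 of 8 as deposited. The ratio of *Pecam1* to *Cdh5* CPM was 3.65 ± 0.66 in size-selected samples and 22.9 ± 6.96 in whole spleen, and that of *Cd36* was 13.0 ± 3.15 and 57.8 ± 17.8. These ratios did not overlap between groups for either gene. In the same samples, 5 of 8 macrophage markers tested were higher in the size-selected group (median log2 fold change 0.57), with summed CPM of 2201 to 5528 against 1503 to 2695, and 6 of 6 megakaryocyte and platelet markers were higher (median 1.62; 94.0 to 647 against 54.7 to 200). Adipocyte markers summed to at most 0.871 CPM, and *Plin1*, *Lep* and *Cidec* were at 0 in every whole spleen sample. The part of macrophages and platelets in the *Pecam1* and *Cd36* values was not tested.

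**Figure D2:**
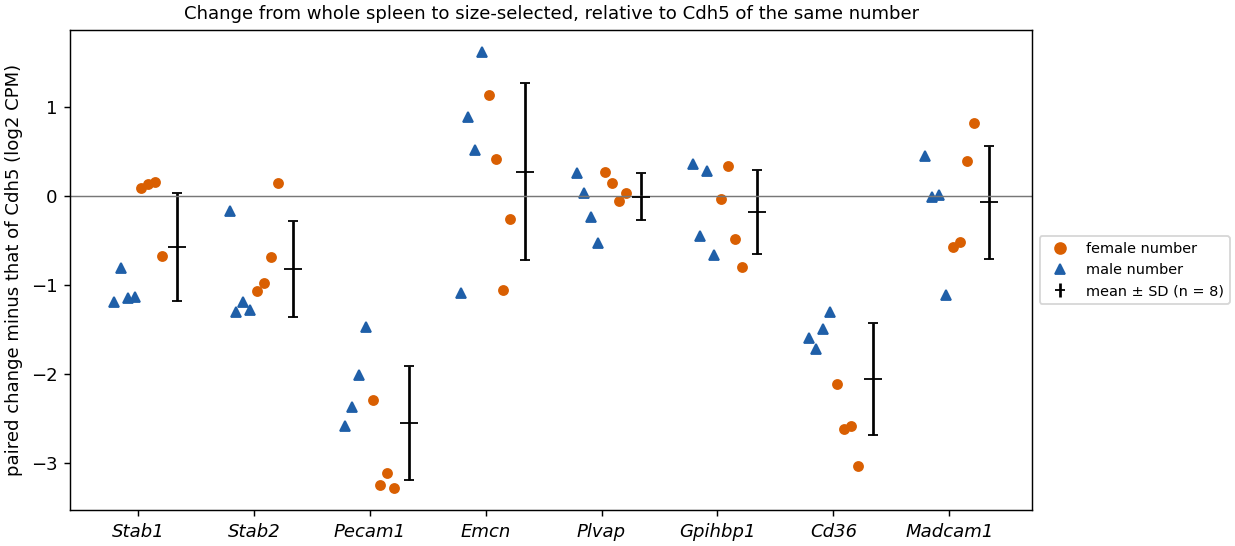
Paired change from whole spleen to size-selected of 8 genes minus the change of *Cdh5* in the same number (log2 CPM), with circles for female and triangles for male numbers and the mean ± SD over 8 pairs. *Plvap* lies around 0, while every *Pecam1* and *Cd36* point is negative.

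The sinus genes were set against the general endothelial genes, as a description with no test. The mean log2 CPM of *Stab1*, *Stab2* and *Lyve1* minus that of *Cdh5*, *Pecam1* and *Emcn* was -1.36 ± 0.41 in size-selected samples and -1.05 ± 0.42 in whole spleen (SD, n = 8). The paired change was -0.31 ± 0.46, higher in 2 of 8 pairs and within its spread. It passed its spread without number 460 (-0.41 ± 0.39) and with *Plvap* added to the general genes (-0.49 ± 0.42, higher in 1 of 8 pairs). The direction turned in some alternatives: without *Lyve1* the change was 0.06 ± 0.84, and with a prior count of 0.5 in place of 2 it was 0.06 ± 0.64. *Lyve1* and *Emcn* have low counts in whole spleen, and their part in the turn was not tested. The score also rests on *Pecam1*, whose mean paired change was 2.09, against 4.63 for *Cdh5* and 4.90 for *Emcn*. Among the sinus genes it was 4.06 for *Stab1*, 3.82 for *Stab2* and 2.82 for *Lyve1*. *Stab2* minus *Cdh5*, as 1 gene of each kind, changed by -0.81 ± 0.54 and was lower in 7 of 8 pairs. It was -0.64 ± 0.55 in females and -0.98 ± 0.55 in males (SD, n = 4). *Stab1* minus *Cdh5* changed by -0.57 ± 0.60. The mean over *Stab1* and *Stab2* minus the general genes changed by 0.61 ± 0.54 in females and -0.49 ± 0.75 in males (SD, n = 4), and this difference between the sexes was not tested.

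Other genes of endothelium rose with the 10. In the list of 20 other pan-endothelial genes, 19 were called higher, with a median log2 fold change of 4.37. The largest change was that of *Tek*, the angiopoietin receptor, at 5.80 (SE 0.43, edgeR adjusted p = 1.74e-09). *Tek* was at 0 CPM in its lowest whole spleen sample. A gene below the minimum count in any whole spleen sample passed the filter only with the size-selected group. This holds for *Tek* and for others of the list, so its count, median and ranking are descriptions. *Icam2* was at 70.9 ± 19.5 CPM against 67.0 ± 7.18 and was not called (edgeR adjusted p = 0.621), but it carries 2 of the constants, and restored it was 0.79 higher and called (edgeR adjusted p = 0.000106). The 8 arterial genes were all higher (median 4.63, smallest *Hey1* at 2.95), as were the 5 venous genes (median 4.67, smallest *Vcam1* at 1.81). The largest changes were those of *Gja5*, a connexin with at most 12.2 counts in a whole spleen sample, at 6.78, and of *Ephb4* at 4.96. Both, and others of these lists, also passed the filter only with the size-selected group, so these counts, medians and rankings are descriptions. Of 4 lymphatic genes found, 3 were higher: *Prox1*, the transcription factor of lymphatic identity, by 4.36, *Mmrn1* by 2.41, and *Pdpn*, which had at most 3 counts in a whole spleen sample and passed the filter only through the size-selected group. *Reln* was not called (1.24, edgeR adjusted p = 0.0616).

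**Figure D3:**
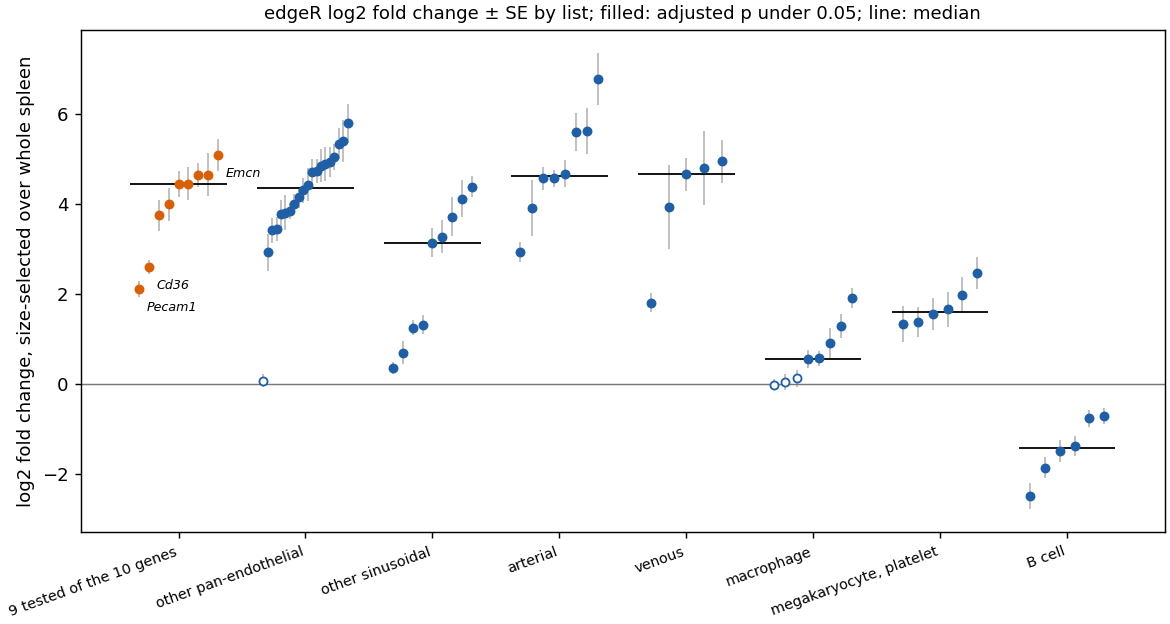
edgeR log2 fold change ± SE, size-selected over whole spleen, of the genes of 8 lists, with filled points for adjusted p under 0.05 and a line at each median. *Pecam1* and *Cd36* lie below the other genes of the first list, and the B cell genes lie below 0.

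Of 10 other sinusoidal genes, 9 were tested and 9 called higher, with a median of 3.15. They spread widely. *Lifr* rose by 4.40, *Flt4* by 4.13, *Oit3* by 3.73, *Gpr182* by 3.28 and *Clec4g*, a C-type lectin of liver and lymph node sinuses, by 3.15. *Flt4* and *Oit3*, at 0.261 and 0.481 CPM in their lowest whole spleen samples, passed the filter only with the size-selected group, so their calls are descriptions. *Mrc1* rose by 1.33 and *Dnase1l3* by 1.26, and both are also made by macrophages or dendritic cells. *Maf* (0.70) and *Fcgr2b* (0.36, edgeR adjusted p = 0.0218), which B cells express as well, rose least. *Gata4*, a regulator of liver sinusoidal endothelium, was at 0 in every whole spleen sample and at 0.344 ± 0.322 CPM in the size-selected samples.

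The lipid uptake genes that work with *Gpihbp1* and *Cd36* were mixed in size of change. Of 9 tested, 8 were called higher, with a median of 1.68. *Slc27a3*, a fatty acid transport protein, rose by 4.52. At 0.153 CPM in its lowest whole spleen sample, it passed the filter only with the size-selected group. *Tcf15*, which with *Meox2* drives *Cd36* in endothelium, was at 2.72 ± 1.21 CPM against 0.108 ± 0.175. It had at most 7 counts in a whole spleen sample and passed the filter only through the size-selected group. *Slc27a1* rose by 2.04, *Fabp4* by 1.80, *Lpl*, the lipase that *Gpihbp1* carries, by 1.68, *Angptl4* by 1.49, *Fabp5* by 0.97 and *Lmf1* by 0.36. *Slc27a4* was not called, at 0.06 (edgeR adjusted p = 0.630). *Meox2* was at 0 in whole spleen and at 1.47 ± 1.48 CPM in size-selected samples, and was not tested. Among 8 other scavenger receptors, 6 were called higher (median 1.74; 7 with the number as a block, which added *Cd5l*), led by *Scarf1* at 4.70.

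The partners of *Madcam1* divided. *Nkx2-3*, the homeobox gene required for *Madcam1* in spleen, rose by 4.62 (SE 0.32, edgeR adjusted p = 9.31e-10), and *Ltbr*, the lymphotoxin receptor, by 2.56. Of the lymphocyte genes, *Itga4* fell by 0.96, *Itgb7* by 1.20, *Lta* by 0.92 and *Ltb* by 1.46 on the log2 scale, all called. Of 6 T cell markers 5 fell, and *Cd4* was not called, though it was called higher with the number as a block.

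Pearson correlations were taken across the 16 samples, after the mean of each group was subtracted. The 3 genes most like *Madcam1* among 9307 genes were *Mfge8* (0.97), *Cxcl13* (0.91) and *Clu* (0.89), which are all in the list of reticular stromal markers. The correlations of *Madcam1* with the other 7 of the 10 genes compared ran from 0.40 (*Pecam1*) to 0.74 (*Gpihbp1*), with *Plvap* at 0.65, *Cdh5* at 0.58 and *Stab2* at 0.57. The 3 were picked as the highest and the 7 were fixed by symbol, so these values do not compare stromal with endothelial genes. For the rest of the stromal list no correlation is given. *Cdh5* was most like *Cavin2* (0.94), *Plvap* (0.94) and *Tspan7* (0.93), and *Stab2* most like *Star* (0.95), *AC131339.2* (0.92) and *Cdh5* (0.91). All share libraries and depth, so these are descriptions.

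**Figure D4:**
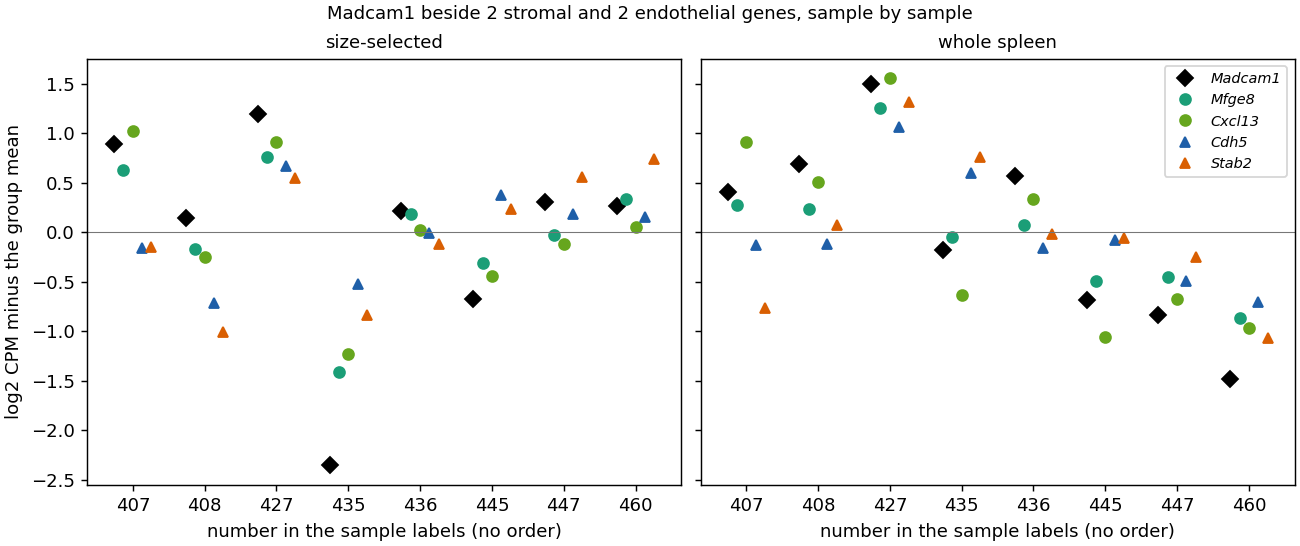
Log2 CPM minus the group mean of *Madcam1*, 2 reticular stromal genes and 2 endothelial genes in each sample of both groups, by number. *Madcam1* follows *Mfge8* and *Cxcl13*, which were picked for their correlation with it, and its lowest value is in size-selected 435.

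The sexes were compared within each fraction. In the size-selected samples 0 of 10 genes were called (edgeR; 0 of 10 at unadjusted p under 0.05, and by DESeq2 0 called and 1, *Stab1*, at unadjusted p under 0.05), where 0.0397% of all genes were called. *Stab1* was at 84.6 ± 18.1 CPM in females and 53.6 ± 28.4 in males (SD, n = 4), with ranges that overlapped.

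In whole spleen, values ran lower in females without passing the edgeR threshold. Of 8 genes past the filter, 0 were called by edgeR, where 0.194% of all genes were, but 6, all lower in females, had an unadjusted p under 0.05, beside 2149 of 13383 genes. *Stab1* was at 1.94, 2.13, 2.22 and 3.08 CPM in females and 3.51, 5.05, 6.10 and 10.8 CPM in males, a log2 difference of -1.44 (SE 0.36, edgeR adjusted p = 0.102). *Plvap* was at 50.1 to 67.5 CPM in females and 90.8 to 264 in males (-1.36, SE 0.30, edgeR adjusted p = 0.0721), and *Gpihbp1* at 3.64 to 5.82 and 7.78 to 11.9 (-1.11, SE 0.23, edgeR adjusted p = 0.0679). For these 3 every male lay above every female, which held for 4.35% of all genes. The other 3 were *Madcam1* (-1.21), *Stab2* (-0.85) and *Cdh5* (-0.82), with overlap. DESeq2 called *Stab1*, *Plvap* and *Gpihbp1*, beside 4.31% of the genes it gave an adjusted p. *Plvap* was also called by edgeR without number 408 (adjusted p = 0.0439) or 427 (adjusted p = 0.0484). The sums of 2 other lists were also higher in every male than in every female whole spleen. That of the reticular stromal list was 340 to 651 against 212 to 317 CPM, and that of the megakaryocyte and platelet list 105 to 200 against 54.7 to 81.8. The largest member of the first sum was *Cr2*, at a mean of 198 CPM in whole spleen, beside *Clu* at 79.0 and *Mfge8* at 60.3. *Cr2* was not called between the fractions (0.04), unlike *Clu* and *Mfge8*, so this sum is not one of stromal cells alone. The part of other cells in the sex values was not tested.

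**Figure D5:**
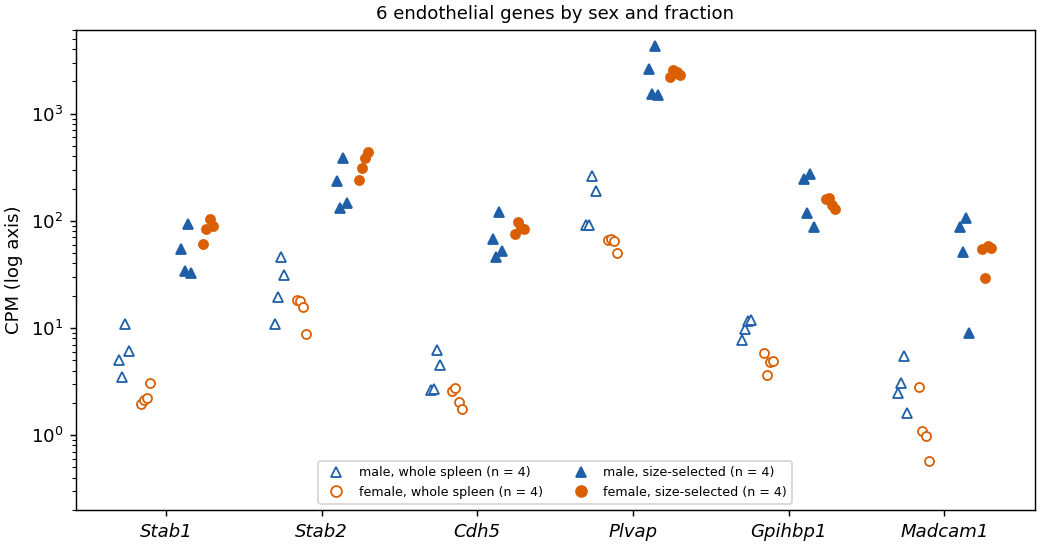
CPM on a log axis of 6 genes by sex and fraction (n = 4 each), open for whole spleen and filled for size-selected, with triangles for males and circles for females. In whole spleen the male points of *Stab1*, *Plvap* and *Gpihbp1* all lie above the female ones.

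The paired change from whole spleen to the size-selected fraction was set against sex. That of *Stab1* was 4.81, 4.87, 5.23 and 5.46 on the log2 scale in females and 2.38, 3.10, 3.22 and 3.41 in males, so that the sexes lay apart. *Cdh5* and *Plvap* also did not overlap between the sexes, as 2.37% of all genes tested did in this direction. The interaction of sex and fraction was called for 0 of 10 genes by edgeR, where 0% of the 15760 genes were (4 of 10 genes at unadjusted p under 0.05, beside 744 of all). With the number as a block, *Stab1* was called, with a difference of 2.11 (SE 0.27, edgeR adjusted p = 0.0391), beside 0.019% of all genes. DESeq2 called 0 of 10 (for *Stab1*, adjusted p = 0.118).

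The authors' deposited table lists genes whose fold change was 3.5 or more on the log2 scale and holds 7 of the 10, beside 2201 of the 54838 genes of the count table. In the authors' deposited table *Stab2* changed by 3.51, *Lyve1* by 4.31, *Cdh5* by 4.68, *Emcn* by 5.15, *Madcam1* by 4.73, *Plvap* by 4.47 and *Gpihbp1* by 4.47. The authors' deposited table gives *Plvap* a mean of 1632 TPM in the size-selected group and 58.4 TPM in whole spleen. *Stab1*, *Pecam1* and *Cd36* are not in the table as used here, and a DESeq2 fit to the count table gave *Stab1* 3.97.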

How the data were processed

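RNA was sequenced in 16 mouse spleen samples. Per the submitters' processing notes the authors used Trim Galore, STAR, RSEM and DESeq with build mm10, with no versions. One deposited file gives estimated counts for every gene, and a second deposited table holds the authors' log2 fold changes, p-values and mean TPM, per the file headers. The constants in the size-selected columns were found from the values. Estimated counts were rounded to whole numbers, filtered with filterByExpr (minimum count 10), TMM-scaled and tested with edgeR 4.0.16 quasi-likelihood in R 4.3.3, on group alone or on sex and fraction, and p-values were adjusted by Benjamini-Hochberg over all genes tested. DESeq2 1.42.0 was an alternative. Log2 CPM used a prior count of 2. Of the 54838 identifiers, 54809 were in GENCODE M21 (GRCm38), and promoters came from RefSeq. Depth was 12153770 to 19944440 estimated counts. Samples of the same number deviated together from their group means, with a mean r of 0.21 (range 0.12 to 0.38, n = 8). For different numbers the mean was -0.03 (range -0.33 to 0.23, n = 56), so the ranges overlapped. The fits were tested on simulated data. The 10 genes and the lists were chosen with earlier results of these data known. The rule for genes named beyond the 10 allows, as examples, the gene of each list with the largest or smallest change, all tested members of the sinusoidal, *Madcam1* and lipid lists, and the 3 genes most correlated with *Stab2*, *Cdh5* and *Madcam1* among genes averaging 3 or more in log2 CPM. *Prox1*, *Mmrn1*, *Cd5l*, *Gata4*, *Meox2*, the adipocyte genes and the overlapping genes were named after their values were seen.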

Additional observations from a re-analysis of the deposited data

Results flagged for a closer look

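*Lyve1* in whole spleen number 427 stood away from the other 7 whole spleen samples, at -0.68 log2 CPM against -2.91 to -1.89, which is 6 counts. Of 22 groups of samples looked at, 1 had such a sample, and 1.1 would be expected by chance. The rise of *Stab1* from whole spleen to the size-selected fraction differed between the sexes by 2.11 on the log2 scale in the fit with the number as a block, larger in females.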

How the results depend on the processing

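Each of the 9 genes tested between fractions kept its direction and its call in 21 of 21 alternatives, and the lowest log2 fold changes mostly came from males alone. Members called by sex in whole spleen were 0 to 1 when each number was left out, and 3 by DESeq2. For the interaction of sex and fraction, 1 gene was called with the number as a block, and 1 also with restored counts and the block. The block pairing changed no other call of the 10 genes, and *Stab1* then differed by 2.11, or by 2.13 on restored counts. Scaling by library totals raised the median of all genes by 0.13 on the log2 scale, and the 9 genes were called there too. The sinus minus general change was -0.81 for *Stab2* minus *Cdh5* only, and -0.41 to -0.23 when each number was left out. Leaving out numbers 427 and 435 together, restored counts with the block and the loss of *Lyve1* from the sinus genes were alternatives chosen after seeing the data. Depth limits *Lyve1*, with at most 6 counts in a whole spleen sample.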
